A study of Mus musculus with 8 samples.

Results

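The response of primary mouse CD4+ T cells to stimulation through CD3 and CD28, in the absence of dorsomorphin, is described here from 4 of the 8 arrays of the study, as the log2 signal of the stimulated arrays minus that of the control arrays. All cells came from BALB/c mice and are labelled as a primary culture. The 2 stimulated arrays hold RNA of cells given plate-bound antibody to CD3 and soluble antibody to CD28 for 1 h and then kept for 6 h after DMSO, the solvent of dorsomorphin, was added. The 2 control arrays hold RNA of cells cultured without these antibodies that also received DMSO. The other 4 arrays held cells given dorsomorphin, an inhibitor of bone morphogenetic protein receptor kinases, at 4 µM, with and without stimulation. They entered the fit for the estimate of the spread between arrays and are used at the end for comparison. Nothing in the labels says that replicates are separate animals or cultures, and the p-values therefore measure the spread among these arrays alone, possibly a technical one. Nothing in the labels gives the subsets within the CD4+ cells or their purity.

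As background, the antibody to CD3 takes the place of antigen at the T cell receptor, whose kinases switch on calcium, Ras and NF-kappaB signalling, and CD28 adds the costimulatory signal. A resting T cell is small, makes little protein and recirculates through lymph nodes. Once activated it leaves this state within hours, induces early transcription factors and then cytokines, enlarges, and builds the machinery for growth before it first divides.

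The arrays carry 45101 probe sets for 18193 genes named by a single symbol, and 13983 genes passed the filter on low values. A gene is represented by its brightest probe set. Signals are on the deposited linear scale, on which every array had a trimmed mean of 500, and they cannot be compared between genes as amounts of RNA because probes differ in brightness. The working floor was a signal of 37.3. Across the 13983 genes the control arrays correlated at 0.952 and the stimulated arrays at 0.944 (Pearson's r of log2 signals), against 0.853 to 0.885 between the groups. Stimulated replicate 2 had the lowest median signal, 45.4, where the 8 arrays reached 74.5, and it had 884 values under 1. Among T cell markers, Cd3d, a chain of the receptor complex, had signals of 21655 and 22438 on the control arrays and 13620 and 12109 on the stimulated arrays. Cd4 itself read 2073 and 1758 and then 672 and 343, and its log2 fold of -1.99 ± 0.61 did not pass (adjusted p = 0.0646). Cd8a lay at 54.3 to 108.9 on the 4 arrays. The myeloid marker Lyz2, which encodes lysozyme, read 1071 and 1713 on the control arrays and 275 and 213 on the stimulated arrays, and Csf1r read 594 and 601 on the control arrays and 224 and 115 on the stimulated arrays. These transcripts of other cells were thus present in the controls. Of the 19 myeloid and dendritic cell markers 3 fell past the threshold (Lyz2, Csf1r and Adgre1), which is 15.8%, close to the 14.4% of all genes. The list median was nevertheless low, at -1.305 log2 units (-1.03 relative to all genes), and 1 of the 19 had a positive fold. For 15 of the 19 both stimulated arrays lay below both controls, which held for 42.0% of all tested genes. The summed signal of the 19 was 12540 and 19750 on the control arrays and 7816 and 6043 on the stimulated arrays. In bulk RNA, fewer cells of a type and less of its RNA per cell cannot be told apart.

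Stimulation moved a large share of the transcriptome. With limma over all 13983 genes, 1256 genes rose, which is 8.98% of those tested, and 2013 fell, which is 14.4%. The median size of the called change was 1.70 log2 units among the rises and 1.71 among the falls. Changes of at least 2-fold made up 1163 of the rises and 1848 of the falls, and 62 rises and 52 falls reached 16-fold. Another 2423 genes differed by at least 2-fold without passing, and the median standard error of a fold was 0.37 log2 units. Dim genes were called least often. Among the 4661 dimmest genes 2.08% rose and 4.83% fell, among the 4661 of middle brightness 8.11% and 20.6%, and among the 4661 brightest 16.8% and 17.8%.

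The genes that rose held 8.13% and 8.14% of the summed signal on the control arrays and 24.0% and 27.6% on the stimulated arrays. Those that fell went from 24.5% and 24.3% to 8.71% and 6.30%, values that the choice of the genes fixes in direction. Over all genes the median log2 fold was -0.27, and medians of gene lists are therefore given as fitted and relative to it. Median centring moved the all-gene median to 0.082, cyclic loess to -0.010 and quantile normalization to -0.046. The rises made up 38.4% of the calls as fitted, 49.0% after median centring (1001 higher and 1040 lower), 49.9% after cyclic loess (1594 and 1601) and 46.0% after quantile normalization (1536 and 1802). The excess of falls over rises was thus smaller in all 3 of these scalings.

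The calls depend most on the 2 control arrays and on stimulated replicate 2, and less on stimulated replicate 1. Without either control array 0 genes passed in limma's test, with 3794 and 3813 genes at an unadjusted p under 0.05, and this holds for every count of called genes below. Without stimulated replicate 2, 261 genes rose and 419 fell. Without stimulated replicate 1 the counts were 984 and 1950. Every one of the 3269 called genes kept its direction in all 4 of these fits, a share that the lack of overlap between the groups largely fixes. Stimulated replicate 2 lay further from the controls than replicate 1 for most called genes. It was the lower of the pair in 1560 of the 2013 genes that fell and the higher in 977 of the 1256 that rose.

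**Figure D1:**
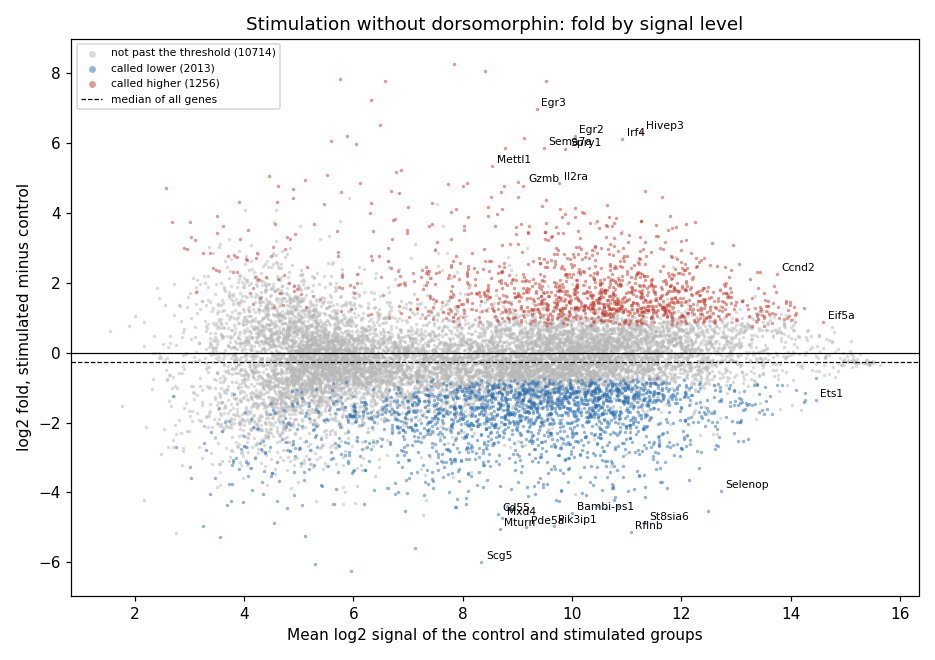
Log2 fold of stimulated minus control arrays (vertical axis, log2 units) against the mean log2 signal of both groups (horizontal axis) for the 13983 tested genes, 1 point a gene, coloured by limma's call. Called genes are spread over most of the signal range, the dashed line of the all-gene median lies at -0.27, and named genes include the largest rises and falls with both group means above the floor.

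Outside the cytokines, chemokines and ribosome biogenesis genes, the largest rises with both group means above the floor were led by transcription factors. Egr3, a zinc finger factor induced by receptor signals, read 99.5 and 34.1 on the control arrays and 10408 and 5159 on the stimulated arrays, a log2 fold of 6.97 ± 0.64 (SE, n = 2 per group, adjusted p = 0.00824), with control replicate 2 under the floor. Another probe set of Egr3, brighter on the control arrays and dimmer on the stimulated arrays, gave 0.05 and did not pass. Hivep3, a large zinc finger protein that binds kappaB-like DNA motifs, read 237 and 327 on the control arrays and 25625 and 18725 on the stimulated arrays. Its log2 fold was 6.30 ± 0.76 on the brightest probe set (adjusted p = 0.00950). Of the dimmer probe sets of the gene, 1 gave 6.79 and passed. The others gave 3.16, -1.64 and -1.13 and did not pass. Irf4, whose induction scales with the strength of the receptor signal, rose 69.0-fold, from 303 and 179 to 13837 and 18617. On these genes both stimulated arrays stood above both controls, which the choice of genes without overlap fixed and which held for 25.1% of all tested genes.

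Surface and signalling genes came next. Sema7a, a membrane-anchored semaphorin of activated lymphocytes, read 87.1 and 102 on the control arrays and 5728 and 5091 on the stimulated arrays, and rose by 5.84 ± 0.79 (adjusted p = 0.0112). Spry1, which limits Ras signalling, rose from 148 and 106 to 6954 and 7192. Crtam, an adhesion receptor, rose by 4.75 ± 0.55, with unequal stimulated arrays at 3914 and 1298. Pdcd1lg2, the gene of PD-L2, a ligand of the inhibitory receptor PD-1, read 77.7 and 80.1 on the control arrays and 1708 and 1727 on the stimulated arrays. Rgs16, which shortens G protein signals, rose by 4.14 ± 0.59 and Gzmb, the gene of the cytotoxic protease granzyme B, by 4.78 ± 0.39.

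Enzymes formed a further group among the largest rises. Mettl1, which methylates guanosine in transfer RNAs, read 62.8 and 54.2 on the control arrays and 2460 and 2257 on the stimulated arrays, a log2 fold of 5.34 ± 0.37 (adjusted p = 0.00784). Srm, spermidine synthase, rose by 4.46, Hk2, which commits glucose to glycolysis, by 4.11, Pla2g12a, a secreted phospholipase A2, by 4.18 and Akr1c18, a hydroxysteroid dehydrogenase, by 4.27 log2 units. Akr1c18 read 32.8 on control replicate 2, which is under the floor. The transcription factor genes Tbx21, the Th1 factor T-bet, and Gfi1, a repressor, rose by 4.46 and 4.22.

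Mir155hg, the host transcript of microRNA-155, read 50 and 63.4 on the control arrays and 692 and 1375 on the stimulated arrays, and rose by 4.11 ± 0.88 log2 units (adjusted p = 0.0258). The arrays measure the long host RNA and not the mature microRNA. The mature strand cut from it is shown because its seed, bases 2 to 8 in capitals, is what pairs with target transcripts. It lies at chr16:84714143-84714165 on the plus strand of GRCm38.p6 and is copied from RefSeq.
mmu-miR-155-5p: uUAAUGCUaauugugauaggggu

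Some rises started from controls under the floor on both arrays and have only a lower bound, which is the stimulated mean over the floor. Mfsd2a, a lysophospholipid transporter, was at least 26.2-fold higher, Spin4, a spindlin family gene, at least 22.8-fold, and Afp, the fetal serum protein alpha-fetoprotein, at least 19.2-fold. The calcium sensor gene Ncs1 was at least 17.5-fold higher, the carbonic anhydrase gene Car12 at least 15.0-fold and the clock factor gene Npas2 at least 14.5-fold. Signals of Afp were 12.1 and 29.9 on the control arrays and 419 and 1225 on the stimulated arrays. In all, 94 of the 1256 rises had such controls.

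Large falls with both group means above the floor included secretory, cytoskeletal and Myc-opposing genes. Scg5, a secretory chaperone of prohormone convertases, read 2604 and 2565 on the control arrays and 246 and 6.65 on the stimulated arrays (adjusted p = 0.0397). Stimulated replicate 2 was under the floor of 37.3, so no exact size is given for this fall. Rflnb, which encodes a filamin-binding actin regulator, read 14562 and 11230 on the control arrays and 741 and 177 on the stimulated arrays. Mxd4, which competes with Myc for the partner Max, fell from 1989 and 2390 to 269.7 and 24.6 (adjusted p = 0.0268), also with stimulated replicate 2 under the floor. Cd55, a surface protein that shields cells from complement, read 2087 and 1875 on the control arrays and 88.8 and 74.4 on the stimulated arrays, with close replicates on both sides (log2 fold -4.61 ± 0.73, adjusted p = 0.0140).

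For several of these genes the stimulated replicates differed widely. Pik3ip1 read 379 and 55.7 on the stimulated arrays and 4635 and 4401 on the controls, and Sntb1, a syntrophin of the membrane skeleton, 247 and 42.1 against 1986 and 2557. Ypel3, a growth-suppressing gene, read 1075 and 105 against 8580 and 6255, and Pou6f1, a POU homeodomain factor, 496 and 78.4 against 3753 and 3793. In each case replicate 2 was the lower of the pair. Both lay below both controls, which the choice of genes without overlap fixed and which held for 42.0% of all tested genes. Mex3b, an RNA-binding protein gene, fell by 4.39 and Smpdl3a, a sphingomyelinase-like phosphodiesterase gene, by 4.21 log2 units, while Sytl1, a synaptotagmin-like vesicle protein gene, fell from 1420 and 1012 to 105 and 34.2, the last value under the floor. Bambi-ps1 fell by 4.58, but it is named as a pseudogene of Bambi and its probes may also read that gene.

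Other genes fell to below the floor on both stimulated arrays. Cd7, a surface protein of T and NK cells, was at least 25.9-fold lower, from 1047 and 888 in the controls. Kcnip2, a potassium channel partner, was at least 14.5-fold lower, Plekha7, a junction protein gene, at least 8.69-fold and Cnga1, a cyclic nucleotide-gated channel gene, at least 8.60-fold. Apobec1, an RNA-editing deaminase, and Ift172, a gene of intraflagellar transport, were at least 6.38-fold and 5.73-fold lower. Of the 2013 falls, 156 ended under the floor.

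**Figure D2:**
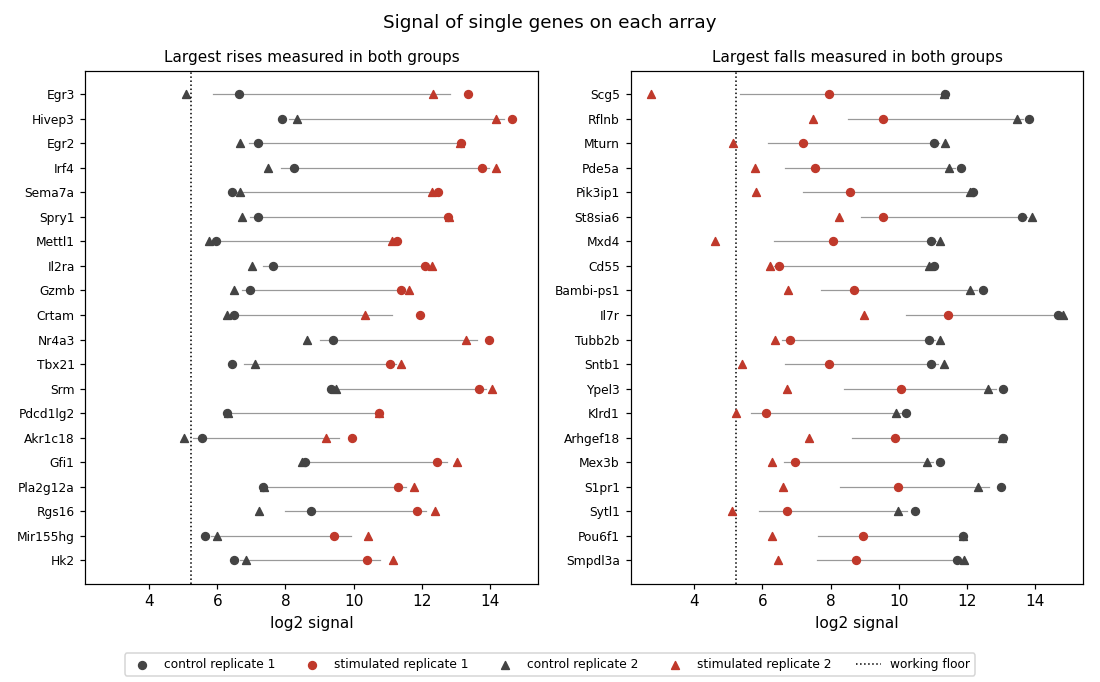
Log2 signal (horizontal axis) of the 20 largest rises and the 20 largest falls with both group means above the floor, outside cytokines, chemokines and ribosome biogenesis, on the 2 control arrays (dark) and 2 stimulated arrays (red), circles for replicate 1 and triangles for replicate 2, with the dotted working floor at 5.22. The groups do not overlap for any of these genes, which were chosen so, and among the falls stimulated replicate 2 lies below replicate 1, as for Pik3ip1 at 379 and 55.7.

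Gene lists, 57 in all with 1733 tested members, order the rest of the description by function. Every count of called members below is to be read beside the shares of all tested genes, 8.98% that rose and 14.4% that fell. Among transcription factors induced by activation, 15 of 37 rose and 0 fell, with a median log2 fold of 1.04 (1.31 relative to all genes). Beyond Egr3, Irf4 and Hivep3, Nr4a3, an orphan nuclear receptor, read 678 and 397 on the control arrays and 15978 and 10060 on the stimulated arrays (log2 fold 4.61 ± 0.36, adjusted p = 0.00784). The opposite held for the factors known from resting T cells, of which 17 of 36 fell and 0 rose, with a median of -1.26 (-0.99 relative to all genes). Both lists are named for the state their members are known from and were chosen with earlier results of these data known. The contrast between them was thus largely set by that choice. Tsc22d3, the glucocorticoid-induced leucine zipper gene, read 12211 and 9469 on the control arrays and 1616 and 238 on the stimulated arrays. Klf2 and Klf3, zinc finger factors of quiescence, fell by 2.53 and 2.68, and Mxi1, another partner of Max that opposes Myc, by 2.35 log2 units. Ets1, one of the brightest genes of the controls, read 36126 and 35988 on the control arrays and 16554 and 11815 on the stimulated arrays (log2 fold -1.37 ± 0.24, adjusted p = 0.0170). When stimulated replicate 2 was left out, 7 of the first list rose and 4 of the second fell.

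Few genes of the receptor complex passed the threshold. Of 14 genes of the T cell receptor complex and CD4 T cell identity, 1 rose (Ptprcap, a CD45-associated protein gene, by 1.01) and 1 fell (Thy1, by 1.22), which is 7.14% each way beside 8.98% and 14.4% of all genes. Of 20 genes of proximal receptor signalling 3 rose and 5 fell, which is 15% and 25%. Their median of -0.30 became 0.05 after median centring. Malt1, the protease that links the receptor to NF-kappaB, rose by 1.88 ± 0.22, the kinase gene Zap70 by 1.48 ± 0.26 and the adaptor gene Lcp2 by 1.29 ± 0.28. The adaptor genes Grap2 and Sh2d1a fell by 2.33 ± 0.36 and 2.32 ± 0.21, Themis by 1.77 and Plcg1, the phospholipase upstream of calcium, by 1.68 log2 units. Another probe set of Plcg1 gave 0.32 and did not pass. Leaving out stimulated replicate 2 left 1 rise and 2 falls in the proximal list, and with median centring it had 4 and 3, while the receptor complex list had 0 of each.

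Negative regulators of this pathway moved in both directions. Of 20 membrane and cytosolic brakes 7 fell and 1 rose, with a median of -0.67 (-0.40 relative to all genes). Sla2, an adaptor that lowers receptor levels, read 651 and 700.3 on the control arrays and 141 and 14.8 on the stimulated arrays, and fell by 3.88 ± 1.03, with stimulated replicate 2 under the floor. Sit1, an inhibitory membrane adaptor, fell by 2.94 and Dgka, which removes the second messenger diacylglycerol, by 2.48. Sla, the close relative of Sla2, rose by 1.86 ± 0.38 on its brightest probe set. Others of its probe sets gave 1.95 and 1.73 and passed, and another gave -1.30 and did not pass. The MAP kinase phosphatases and Sprouty genes, which are feedback inhibitors downstream of Ras, had 6 of 14 members up and 2 down. Dusp6 rose from 379 and 235 to 3934 and 5743 (log2 fold 3.99 ± 0.34), Dusp4 by 2.87, Spred1 by 2.61 and Dusp5 by 2.52. Dusp10 and Dusp7 fell by 2.09 and 1.23 log2 units. With stimulated replicate 1 alone against the controls, the falls among the brakes numbered 1, and the phosphatase list had 4 up and 0 down.

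NF-kappaB genes had 6 of 19 members up and 4 down. Nfkbid, a nuclear inhibitor-like protein, read 492 and 477 on the control arrays and 7359 and 5447 on the stimulated arrays, and rose by 3.71 ± 0.30 (adjusted p = 0.00784). Rel, the subunit c-Rel, rose by 2.08 ± 0.37 and Nfkb2 by 1.49 ± 0.22. The kinase gene Ikbke fell by 2.62 ± 0.37, and Tnip1, an inhibitor that binds A20, by 1.51 ± 0.22. Among genes of calcium entry, calcineurin and NFAT, 3 of 23 rose and 8 fell (median -0.48). Kcna3, the potassium channel that sustains calcium influx, Nfatc1 and the pore gene Orai1 rose by 1.94, 1.80 and 1.59. Another probe set of Nfatc1, brighter on the control arrays, gave 0.31 and did not pass, and a further one gave 2.52 and passed. Orai2, a second pore gene, read 2173 and 2217 on the control arrays and 211 and 110.1 on the stimulated arrays, and fell by 3.85 ± 0.41, and the store sensor gene Stim1, the inositol trisphosphate receptor gene Itpr3 and the calcineurin gene Ppp3ca fell by 2.24, 2.39 and 2.26 log2 units. In the fit without stimulated replicate 2, the counts were 1 up and 1 down for NF-kappaB, and 1 up and 2 down for calcium and NFAT. With median centring 2 NF-kappaB genes fell.

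Second messenger and small GTPase genes that passed the threshold mostly fell. Of 23 genes of G protein regulation and cyclic nucleotide turnover 11 fell and 3 rose, with a median of -1.39 (-1.11 relative to all genes). Several of the falls were phosphodiesterases, which break down cyclic AMP or cyclic GMP. Pde5a read 3639 and 2842 on the control arrays and 185 and 55.2 on the stimulated arrays, Pde2a fell by 3.84 ± 0.61, Pde4d by 3.56 ± 0.36 and Pde3b by 2.94 ± 0.25. The rises were Rgs16, Rgs1, which restrains migration toward chemokines, by 2.75 ± 0.34, and Ptger2, a prostaglandin E receptor gene, by 1.91 ± 0.48. Of 34 small GTPase regulators, 16 fell and 1 rose, with a median of -1.45 (-1.18 relative to all genes). Rasa3, which shuts off Ras and Rap1, fell by 3.87 ± 0.68 and Rasgrp2, which activates Rap1 and thereby integrins, by 3.77 ± 0.73. The 1 rise was Rasal1, up by 1.72, with control replicate 1 under the floor at 22.8. Without stimulated replicate 2, the falls numbered 4 and 5.

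Of 29 genes of PI3-kinase and mTORC1 control 8 fell and 0 rose. Sesn1, a stress-induced inhibitor of mTORC1, read 9974 and 8854 on the control arrays and 1217 and 715 on the stimulated arrays, and fell by 3.33 ± 0.43 (adjusted p = 0.0105). The PI3-kinase gamma subunits Pik3r5 and Pik3cg fell by 2.59 and 2.17, the regulatory subunit gene Pik3r1 by 2.26 and the mTORC2 scaffold gene Rictor by 1.92. When stimulated replicate 2 was left out, 2 of these fell, and with median centring 5.

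Cytokine signalling genes moved both ways. Of 20 JAK, STAT and SOCS genes 4 rose and 5 fell, which is 20% and 25% beside 8.98% and 14.4% of all genes. The feedback inhibitor genes Cish and Socs1 rose by 3.76 ± 0.65 and 3.09 ± 0.78, with Cish at 555 and 798 on the control arrays and 8500 and 9547 on the stimulated arrays. Stat4 and Stat5b, which carry interleukin-12 and interleukin-2 family signals, fell by 2.02 ± 0.37 and 1.96 ± 0.40. Cytokine receptors had 4 members up and 10 down of 23, with a median of -1.0 (-0.72 relative to all genes). Both chains of the interleukin-12 receptor were called higher. Il12rb1 rose by 3.26 ± 0.42, while Il12rb2 was dim, at 8.24 and 3.83 on the control arrays and 39.9 and 35.6 on the stimulated arrays, and Il15ra rose by 2.75 ± 0.34. Il7r, the survival cytokine receptor of resting T cells and one of the brightest called genes of the controls, read 26026 and 28847 on the control arrays and 2810 and 504 on the stimulated arrays. Il18r1 fell by 3.79 ± 0.65, from 4152 and 5979 to 729 and 177. With stimulated replicate 1 alone against the controls, the receptor list had 2 up and 2 down, and the JAK, STAT and SOCS list 1 and 1. With median centring the latter had 3 up and 3 down.

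On the cell surface, 18 of 37 activation and costimulatory molecules rose and 2 fell, with a median of 1.37 (1.65 relative to all genes). Il2ra, the high-affinity chain of the interleukin-2 receptor, read 199 and 130.4 on the control arrays and 4339 and 5046 on the stimulated arrays. The TNF family ligand gene Tnfsf14 (LIGHT) and receptor gene Tnfrsf9 rose by 3.66 ± 0.31 and 3.62 ± 0.53, and Cd69, which retains lymphocytes in tissue, by 3.59 ± 0.48. The molecules that fell were Cd96, a receptor of nectin-like ligands, by 2.14 ± 0.38, and Nt5e, the adenosine-producing enzyme CD73, by 2.07 ± 0.47. Of 34 homing, adhesion and chemokine receptors, 15 fell and 1 rose, with a median of -0.86 (-0.59 relative to all genes). The integrin chains Itga4 and Itgb7, which pair to bind gut vessels, fell by 3.86 ± 0.69 and 3.11 ± 0.68, and the chemokine receptor gene Cxcr4 by 3.29 ± 0.73. Itga4 read 6102 and 6819 on the control arrays and 874 and 225 on the stimulated arrays. Itgav rose by 1.57 ± 0.36. Another of its probe sets gave -1.95 and further ones 1.49 and 1.72, none of them past the threshold. In the fit without stimulated replicate 2, the surface list had 9 up and 0 down, and 3 homing genes fell.

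For completeness, 13 of 22 cytokine genes and 7 of 13 chemokine genes rose. Il16, a cytokine processed from a large precursor, was the cytokine gene that fell, by 2.84 ± 0.27, from 7904 and 7815 to 1332 and 899.5. Il13 read 9.87 and 4.86 on the control arrays and 321 and 805 on the stimulated arrays, Ccl20 read 11.3 and 3.04 on the control arrays and 342 and 445 on the stimulated arrays, and Ccl17 rose by 4.28 ± 0.87. Ccl17 read 7.48 on control replicate 1, which is under the floor. Without stimulated replicate 2, 4 cytokine and 4 chemokine genes rose.

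The list of antiproliferative and quiescence effectors had the lowest median of the 57, -1.63 (-1.36 relative to all genes), with 14 of 26 members down and 0 up. Ccng2, an atypical cyclin of arrested cells, fell by 4.21 ± 0.67, and Txnip, which limits glucose uptake and binds thioredoxin, read 17245 and 14584 on the control arrays and 3125 and 515 on the stimulated arrays. Cdkn1b, the p27 inhibitor of cyclin-dependent kinases, read 8409 and 7772 on the control arrays and 1484 and 334 on the stimulated arrays, and fell by 3.52 ± 0.74 (adjusted p = 0.0251). Of 8 Gimap genes, GTPases that maintain resting lymphocytes, 6 fell as fitted and 5 with cyclic loess, but only 1 with median centring. Gimap4 read 29899 and 32910 on the control arrays and 16444 and 9220 on the stimulated arrays. Gimap5 and Gimap3 had log2 folds of 0.72 and -1.75 that did not pass. Members of this family are similar in sequence and lie together, so probes may cross-read. When stimulated replicate 2 was left out, 8 effectors and 0 Gimap genes fell.

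Ubiquitin ligase and autophagy genes that passed also mostly fell. Of 51 ubiquitin ligases and deubiquitinases of lymphocytes 18 fell and 4 rose. Fbxo32, a ligase of atrophying muscle, fell by 4.16 ± 0.73, Rnf125 by 3.57 ± 0.63 and Klhl24 by 3.07 ± 0.54, while Rnf149 and Siah2 rose by 1.79 and 1.49. Fbxo32 read 28.3 on stimulated replicate 2, which is under the floor. Of 59 autophagy and lysosome genes 21 fell and 1 rose, with a median of -0.83 (-0.56 relative to all genes). Ulk2, an initiating kinase of autophagy, fell by 2.76 ± 0.43, Map1lc3a, a coat protein of autophagosomes, by 2.68 ± 0.59 and Atg2a, a lipid transfer protein, by 2.55 ± 0.66. Lipa, the lysosomal acid lipase, read 2502 and 2765 on the control arrays and 570 and 367 on the stimulated arrays. The myeloid markers, whose cells are rich in lysosomes, had lower summed signals on the stimulated arrays, as given above. The part of those cells in the falls of this list was not tested. The glucuronidase gene Gusb was the member that rose, by 1.65. With stimulated replicate 1 alone against the controls, 3 ligases and 4 autophagy and lysosome genes fell, and with median centring 12 of the latter.

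Among metabolic lists, those of amino acid and nucleotide synthesis had the highest medians. Of 30 genes of amino acid transport, serine and one-carbon metabolism 14 rose and 2 fell (median 1.38, or 1.65 relative to all genes). Shmt2, which makes one-carbon units from serine in mitochondria, read 897 and 830.3 on the control arrays and 8138 and 7298 on the stimulated arrays, and rose by 3.16 ± 0.25 (adjusted p = 0.00784). The falls were Trib3 and Ddit3, targets of the stress factor ATF4, by 1.97 ± 0.49 and 1.03 ± 0.26. Of 26 purine and pyrimidine synthesis genes 15 rose, with a median of 1.50 (1.78 relative to all genes). Cad, which starts pyrimidine synthesis, read 312 and 350.1 on the control arrays and 3403 and 4035 on the stimulated arrays, and rose by 3.49 ± 0.35 (adjusted p = 0.00851). Nme1, which phosphorylates nucleoside diphosphates, rose by 3.73 ± 0.67 and Dctpp1, which hydrolyses dCTP, by 2.86 ± 0.39. The CTP synthase gene Ctps rose by 3.27 ± 0.41, from 358 and 375 to 2779 and 4491, and its paralogue Ctps2 fell by 3.28 ± 0.47, from 3710 and 3707 to 609 and 238.

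Polyamine genes had 6 of 11 members up. Odc1, the first enzyme of the pathway, rose by 2.45 ± 0.23, while Oaz2, an antizyme that marks it for breakdown, fell by 1.44 ± 0.25. Of 32 lipid synthesis genes, for cholesterol and fatty acids, 10 rose and 3 fell. The sterol synthesis genes Idi1 and Sqle rose by 2.95 ± 0.38 and 2.33 ± 0.30, and the falls included the cholesterol exporter genes Abcg1 and Abca1, by 3.36 ± 0.79 and 2.74 ± 0.50. Abcg1 read 2374 and 3362 on the control arrays and 626 and 121 on the stimulated arrays. AMPK subunits and fatty acid oxidation enzymes had 10 of 25 members down and 0 up, with Acaa2 and Cpt1a, of mitochondrial fatty acid breakdown and import, down by 1.74 ± 0.30 and 1.61 ± 0.38. In the fit without stimulated replicate 2, the rises numbered 7 for amino acid, 3 for nucleotide, 2 for polyamine and 3 for lipid synthesis genes, and 0 of the AMPK and oxidation list fell. That list had 1 fall with median centring and 7 falls with cyclic loess.

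Of 27 genes of glycolysis and the pentose phosphate pathway 9 rose and 1 fell. Hk2 read 89.9 and 114 on the control arrays and 1353 and 2268 on the stimulated arrays. Slc16a1, which exports lactate, rose by 3.34 ± 0.54, Pgam1 by 2.04 ± 0.30, Tpi1 by 1.75 ± 0.45 and Pgk1 by 1.49 ± 0.28. The glucose transporter gene Slc2a3 fell by 1.24 ± 0.32, from 3158 and 2947 to 1418 and 1174. The citrate cycle and pyruvate entry list had 4 of 32 members up and 2 down. This is 12.5% and 6.25%, beside 8.98% and 14.4% of all genes. Idh3a, the NAD-dependent isocitrate dehydrogenase subunit of mitochondria, rose by 1.86 ± 0.27, and its NADP-dependent cytosolic counterpart Idh1 fell by 3.35 ± 0.72, from 535 and 662 to 129 and 26.3, the last value under the floor. Pdk2, which inhibits pyruvate dehydrogenase, was at least 3.11-fold lower. Of 43 oxidative phosphorylation subunits 8 rose and 0 fell, among them Uqcrq by 2.0, Atp5g1 by 1.97 and cytochrome c (Cycs) by 1.72. Another probe set of Uqcrq gave -0.04 and another of Ndufs8 -0.27, and neither passed. Further sets rose and passed, by 3.51 for Uqcrq and by 1.10 to 1.40 for Ndufs8. Without stimulated replicate 2, 0 glycolysis, 0 citrate cycle and 0 oxidative phosphorylation genes rose. With median centring 2 citrate cycle and 3 oxidative phosphorylation genes rose, and with cyclic loess 5 and 12.

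Called genes of the protein synthesis machinery nearly all rose, and few ribosomal proteins of the cytosol were among them. Ribosome biogenesis factors, which assemble ribosomes in the nucleolus, had 33 of 35 members up. Of 22 cytosolic aminoacyl-tRNA synthetases and their scaffold proteins 17 rose and 0 fell, with a median of 1.75 (2.02 relative to all genes). The scaffold gene Aimp2 read 904 and 1020 on the control arrays and 5378 and 7001 on the stimulated arrays, and Iars, Rars and Tars, which charge isoleucine, arginine and threonine, rose by 2.26 ± 0.26, 2.21 ± 0.37 and 2.14 ± 0.26. Translation factors had 17 of 40 members up and 1 down. Eif2b3, of the exchange factor that recharges eIF2, rose by 2.72 ± 0.39, and the cap-binding protein gene Eif4e by 2.28 ± 0.44, from 1752 and 1828 to 7706 and 9829. Paip2, an inhibitor of the poly(A)-binding protein, fell by 1.71 ± 0.30.

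Of 44 cytosolic ribosomal protein genes, 3 rose (Rps25, Rpl12 and Rpl14) and 0 fell. This is 6.82% up against 8.98% of all genes, with a median of -0.24 that became 0.11 after median centring. Many of these genes have processed pseudogenes that probes may also read. Of 70 mitochondrial ribosomal protein genes 30 rose and 0 fell, with a median of 1.13 (1.40 relative to all genes). Mrps6 and Mrps28, of the small subunit, rose by 2.92 ± 0.45 and 2.82 ± 0.51, and Mrpl12 by 2.27 ± 0.45, from 1721 and 2441 to 7790 and 12540. Of 32 genes of mitochondrial import and biogenesis 15 rose and 0 fell. The carrier chaperone gene Timm8a1 rose by 3.84 ± 0.46, the pore gene Tomm40 by 2.78 ± 0.30, and the matrix chaperone genes Hspd1 and Hspa9 by 3.07 ± 0.48 and 2.48 ± 0.39. Hspd1 read 2393 and 3078 on the control arrays and 21304 and 24404 on the stimulated arrays. When stimulated replicate 2 was left out, the rises numbered 5 for synthetases, 1 for translation factors, 1 for mitochondrial ribosomal proteins, 3 for import genes and 19 for ribosome biogenesis. With median centring 11 translation factors and 16 mitochondrial ribosomal proteins rose, and the other 3 lists had 16, 13 and 32 rises.

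Called genes of RNA synthesis, processing and transport mostly rose. RNA polymerase subunits and factors of tRNA and rRNA transcription had 9 of 30 members up. Polr2h, a subunit shared by the nuclear polymerases, rose by 2.79 ± 0.42, and Maf1, the repressor of RNA polymerase III, fell by 1.87 ± 0.28, from 9158 and 7934 to 2855 and 1905. Of 48 nuclear pore and transport genes 19 rose and 0 fell. The importin gene Ipo4 rose by 2.99 ± 0.34, and Rcc1 and Ranbp1, which set the Ran gradient, by 2.59 ± 0.30 and 2.37 ± 0.43. Spliceosome and hnRNP genes had 26 of 63 members up and 4 down. The rises included Prpf31, a protein of the U4/U6 particle, by 2.24 ± 0.56, and Snrpa1, of the U2 particle, by 2.10 ± 0.50. The kinase genes Clk1 and Clk4, which phosphorylate splicing factors, fell by 1.84 ± 0.23 and 1.24 ± 0.21. With stimulated replicate 1 alone against the controls, 2, 5 and 0 members of these lists rose, and with median centring 7, 13 and 16.

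Protein folding and breakdown genes gave the proteasome list 27 of 44 members up and 0 down, with a median of 1.26 (1.53 relative to all genes). Psme3, a nuclear activator of the core particle, read 400.4 and 434 on the control arrays and 2464 and 3510 on the stimulated arrays. The other called members rose by 1.03 to 1.95 log2 units, among them Psmd7 (1.95) and Psma5 (1.85), down to Psmc6 (1.03). Cytosolic chaperones had 16 of 38 up and 2 down. Hsph1 and Cct3, of the Hsp110 and TRiC chaperones, rose by 2.24 ± 0.54 and 2.10 ± 0.38, and Dnajb4 and Bag3 fell by 1.21 and 0.99. Endoplasmic reticulum genes had 15 of 35 up and 3 down. Hspa5, the chaperone BiP, read 6368 and 7248 on the control arrays and 24748 and 26330 on the stimulated arrays, and rose by 1.91 ± 0.35. Eif2ak3, the stress sensor PERK, fell by 1.59 ± 0.34. In the fit without stimulated replicate 2, 2 proteasome, 0 chaperone and 1 endoplasmic reticulum genes rose. With median centring the rises numbered 14, 9 and 8, and with cyclic loess 34, 18 and 14.

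Cell cycle genes are given by phase. Of 22 genes of G1 cyclins, their kinases and E2F factors 9 rose and 2 fell. Ccnd2, the D-type cyclin of T cells, read 5018 and 7980 on the control arrays and 29928 and 29730 on the stimulated arrays, and rose by 2.24 ± 0.47 (adjusted p = 0.0244). Other probe sets of Ccnd2 above the floor gave 2.93 to 3.89 and passed. Cdk6, the kinase of this cyclin, rose by 2.84 ± 0.37 and the E2F partner gene Tfdp1 by 2.32 ± 0.32. E2f2, which restrains T cell proliferation, fell by 3.97 ± 0.29, from 943 and 765 to 55.4 and 52.7, and Tfdp2 by 3.44 ± 0.34. DNA replication genes had 8 of 46 up and 1 down, which is 17.4% up. They included Tipin, of the fork protection complex, and the helicase subunits Mcm5 and Mcm3, by 1.69, 1.55 and 1.47. Of 29 mitosis genes 0 rose and 3 fell, which is 10.3% down against 14.4% of all genes. The falls were the kinetochore gene Ndc80 by 2.22, Nusap1 by 1.86 and Birc5, the gene of survivin, by 1.20, and the list median was -0.91 (-0.64 relative to all genes). Without stimulated replicate 2, 2 G1 genes and 0 replication genes rose and 0 mitosis genes fell, and with median centring the counts were 6, 5 and 2.

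Cell death genes had 3 of 29 members up and 3 down, or 10.3% each way beside 8.98% and 14.4% of all genes, so the list did not stand out from them. Its median of -0.32 became 0.03 after median centring, with 2 up and 1 down. Bid, which links death receptors to mitochondria, rose by 2.57 ± 0.24 and the survival gene Bcl2l1 by 1.74 ± 0.38, from 377 and 492 to 1195 and 1732. The apoptosome genes Casp9 and Apaf1 fell by 2.38 ± 0.26 and 1.24 ± 0.26, and Bbc3, the death gene Puma, by 1.63 ± 0.34. When stimulated replicate 2 was left out, 1 of the list rose and 1 fell.

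Of 79 histone and DNA modifying enzymes 13 rose and 22 fell as fitted, but 15 rose and 9 fell with median centring and 18 and 17 with cyclic loess, so the excess of falls depends on the scaling. The methyltransferase genes Smyd2 and Smyd5 rose by 4.10 ± 0.58 and 3.0 ± 0.34. Another probe set of Smyd5 gave 3.59 and passed, and a further one gave -0.64 and did not pass. The arginine methyltransferase gene Prmt1 rose by 2.52 ± 0.37, from 2296 and 2617 to 11476 and 17120. Hdac11, the deacetylase known for its link to interleukin-10, read 39.9 and 63.3 on the control arrays and 2.73 and 5.12 on the stimulated arrays, and was at least 1.35-fold lower. Glycosyltransferases had 16 of 43 members down and 2 up, and 9 down with median centring. The sialyltransferase gene St8sia1 fell by 3.94 ± 0.43, from 5111 and 6721 to 591 and 248, St6galnac3 by 3.97 ± 0.69 and St3gal6 by 3.03 ± 0.52, and St6galnac4 rose by 3.70 ± 0.41, from 230.2 and 182 to 2593 and 2730. St6galnac3 read 227 and 884 on the control arrays and 42.5 and 19.1 on the stimulated arrays, the last value under the floor. Of 48 cytoskeleton genes 12 fell and 2 rose, and the median of -0.12 became 0.24 after median centring, with 5 down and 1 up. Tubb2b and Tubb2a, near-identical beta-tubulins whose probes may share transcripts, fell by 4.47 and 2.72, and Marcksl1 rose by 1.72. With stimulated replicate 1 alone against the controls, 2 modifying enzymes rose and 0 fell, and 6 glycosyltransferase and 2 cytoskeleton genes fell.

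The remaining lists had few called members or members in both directions, to be read beside 8.98% up and 14.4% down over all genes. Interferon-stimulated genes had 1 of 44 up (Bst2, or tetherin, by 2.69) and 1 down (Sp100, by 1.77). Their summed signal was 66720 and 72690 on the control arrays and 187400 and 83020 on the stimulated arrays, so stimulated replicate 1 stood apart, and without it 1 rose and 6 fell. Granule genes had 2 up and 2 down of 13, which is 15.4% each way. Gzmk, another granzyme, fell by 2.83 ± 0.71, from 339.8 and 300.2 to 93.5 and 21.7, the last value under the floor, opposite to Gzmb. Regulatory T cell genes had 1 up (Itgb8) and 1 down (Nrp1) of 10, which is 10% each way and near the shares of all genes. Clock genes had 3 up and 1 down of 16, with Per2 up by 2.15 ± 0.47 and Arntl, the partner of Clock, down by 1.39 ± 0.35. The median of the clock list lay just under 0 as fitted and above 0 in all 3 other scalings. Of 24 BMP, activin and TGF-beta genes 8 fell and 1 rose. The receptor gene Acvr2b was at least 1.41-fold lower, Tgfbr3 fell by 2.99 ± 0.37, the inhibitory SMAD gene Smad7 by 2.08 ± 0.44, from 4704 and 4067 to 1296 and 829.6, and the repressor gene Tgif2 rose by 1.66. Of other cell types, 1 of 10 B cell markers fell (Cd79b, from 179 and 239.5 to 41.8 and 22.7), 1 of 7 CD8 T cell and NK cell markers fell (Klrd1, a chain of NK receptors, from 1194 and 973 to 68.9 and 37.1), and 0 of 8 red cell and platelet markers passed. The shares of B cell and of CD8 T and NK cell markers that fell, 10% and 14.3%, did not exceed the 14.4% of all genes. Leaving out stimulated replicate 2 left 2 falls in the BMP, activin and TGF-beta list and 1 rise among clock genes.

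**Figure D3:**
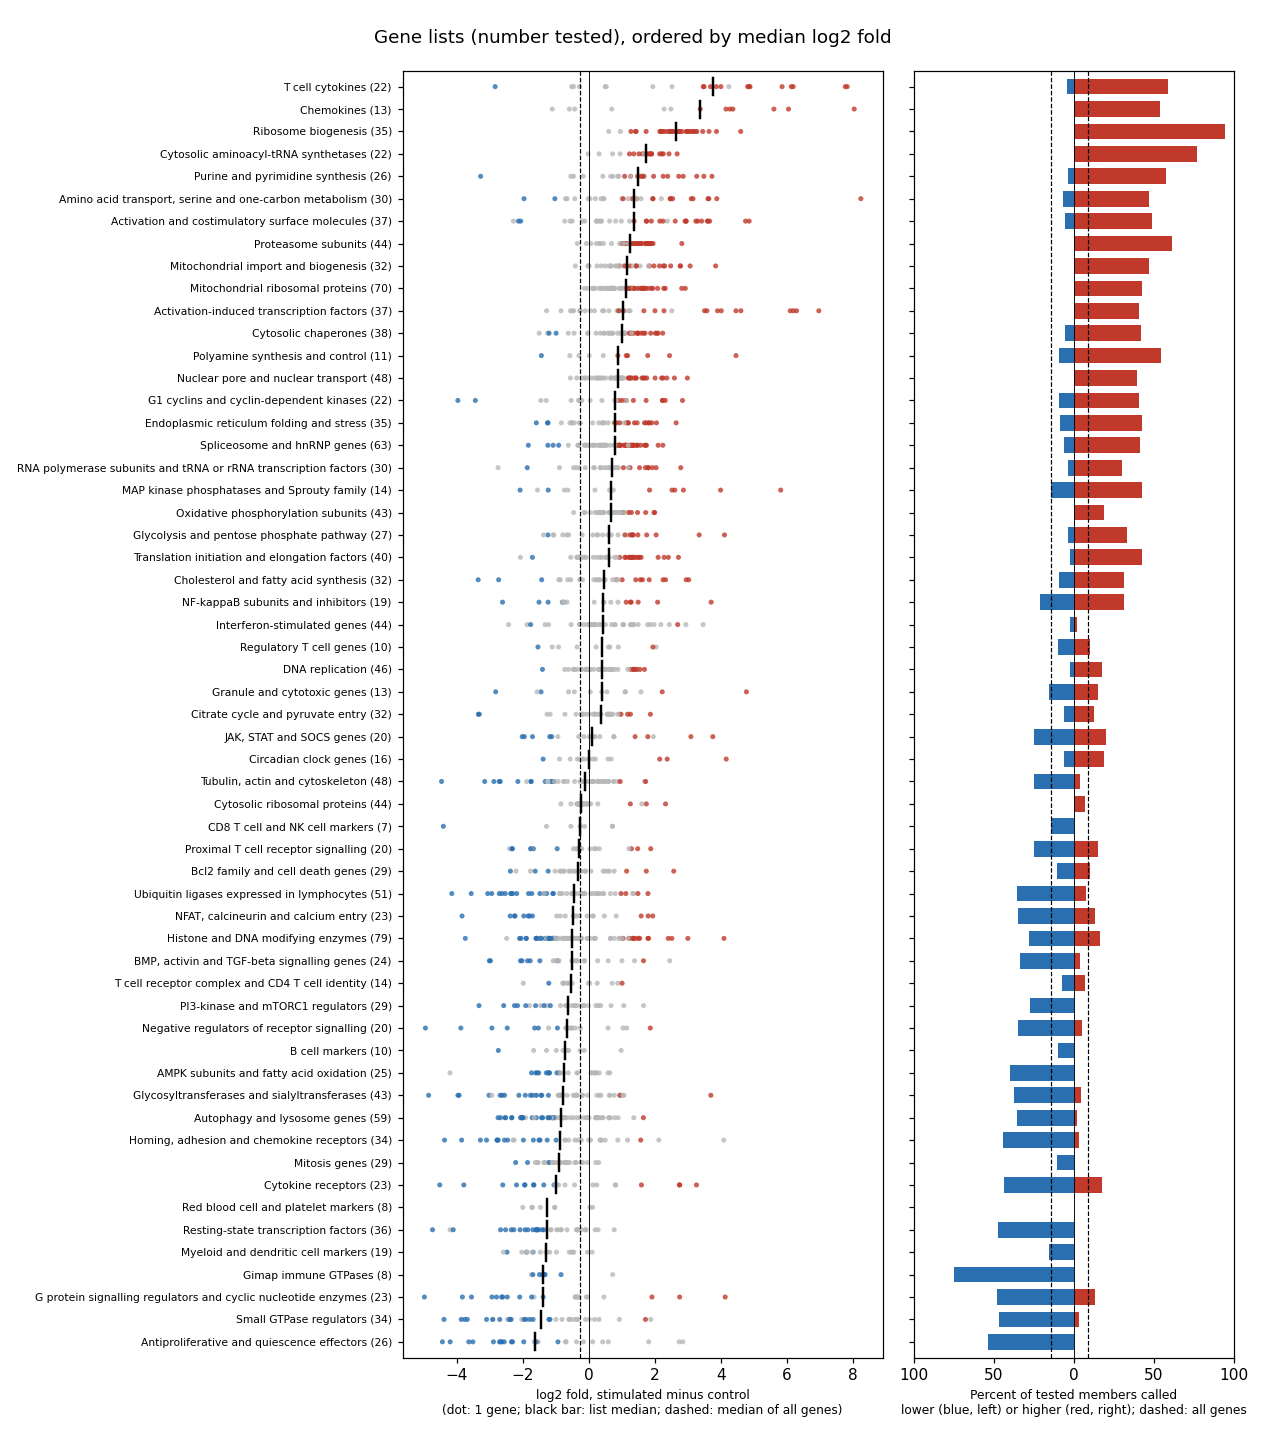
Left, log2 fold of each tested member (horizontal axis, 1 dot a gene, red for called higher, blue for called lower, grey for not past the threshold) for 57 gene lists with the number tested in brackets and the list median as a black bar. Right, percent of members called lower and higher beside dashed lines for all genes, at 14.4% and 8.98%. Ribosome biogenesis had 94.3% of its members higher and the Gimap list 75.0% lower, which became 1 of 8 genes with median centring.

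Some related genes moved in opposite directions, and the following pairs were picked after their values were seen. E2f1 rose by 1.01 ± 0.27 and E2f2 fell by 3.97 ± 0.29, and Nfatc1 rose by 1.80 ± 0.35 where Nfatc3 fell by 1.71 ± 0.22. Jak2 rose by 1.40 ± 0.36 and Jak1 fell by 1.71 ± 0.29, from 20900 and 18933 to 7501 and 4921. Ezh2, the histone methyltransferase of dividing cells, rose by 1.33 ± 0.27, and Ezh1, its counterpart of resting cells, fell by 1.59 ± 0.29. Rgs1 and Rgs16 rose where Rgs2 fell by 2.80 ± 0.56, from 7935 and 5372 to 1404 and 623. In each of these pairs both members passed the threshold on the probe set that was brightest over the 8 arrays. For Nfatc1, another probe set that was brighter on the control arrays gave 0.31 and did not pass, and a further one gave 2.52 and passed. A difference between the members' folds was not tested.

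The brightest called genes show which abundant transcripts changed. In stimulated cells they included Ccnd2, Eif5a, whose protein carries the polyamine-derived hypusine, and Ncl, the nucleolar protein nucleolin. Eif5a read 18636 and 17814 on the control arrays and 32677 and 34373 on the stimulated arrays, a log2 fold of 0.88 ± 0.24 (adjusted p = 0.0473), and Ncl 12674 and 12176 on the control arrays and 29252 and 30885 on the stimulated arrays. Slc25a5, which exchanges ADP and ATP across the mitochondrial membrane, rose by 1.44 ± 0.23, Hsp90aa1 by 1.31 ± 0.25 and Ran by 1.37 ± 0.27. In controls they included Il7r, Ets1 and Gimap4 above, and Selenop, a secreted selenium carrier, read 27794 and 25738 on the control arrays and 4593 and 637 on the stimulated arrays, a log2 fold of -3.97 ± 0.90 (adjusted p = 0.0295). Itm2b, a membrane protein gene, fell by 1.41 ± 0.32, the actin regulator gene Coro1a by 1.16 ± 0.29 and Mbnl1, a splicing regulator, by 0.74 ± 0.20. Selenop, Itm2b and Msn are also transcribed in myeloid cells, some of whose markers fell as given above, and the part of those cells was not tested. For the brightest genes of stimulated cells the size of the fold depended on the probe set. Other probe sets that passed gave 2.69 for Eif5a, 1.89 to 2.93 for Ncl, and 2.26 and 2.46 for Hsp90aa1. Those of Ccnd2 gave 2.93 to 3.89, against 2.24 on its brightest. For Slc25a5 and Ran such sets gave both smaller and larger folds.

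Promoters of called genes were searched for short motifs on both strands, in the 250 bases before and 50 after the start site of genes with a single RefSeq window on GRCm38.p6. These were 846 of the 1256 genes that rose, 1255 of the 2013 that fell and 9056 of those tested. CACGTG, the E-box bound by Myc and Max and by MITF and TFE factors, was present in 15.8% of the promoters of rising genes, 9.56% of falling genes, 9.56% of tested genes and 7.12% of all 22862 promoters. TGTTTAC, a forkhead motif, was in 1.30%, 3.51%, 2.71% and 3.56% of these sets. The NF-kappaB-like motif, GGG and TTCC with any 3 bases between them, was in 7.09%, 6.14%, 6.00% and 5.55%. TGANTCA, the AP-1 motif, was in 4.37%, 4.38%, 5.48% and 7.98%. Of the other motifs searched, GGGCGG was in 63.9%, 69.6%, 60.7% and 35.2%. CCAAT was in 37.5%, 40.9%, 38.5% and 38.2%, and TGACGTCA in 4.26%, 2.71%, 2.96% and 1.85%. GGAAA, the short core bound by NFAT, was in 62.5%, 59.1%, 58.1% and 61.1%. The NF-kappaB-like motif can overlap GGAAA on the other strand. By list, CACGTG was in 7 of the 28 ribosome biogenesis promoters with a window and in 14 of the 43 autophagy and lysosome promoters, although the called members of the first list rose and those of the second mostly fell. The NF-kappaB-like motif was in 5 of 9 chemokine promoters. These shares are descriptions, and no test of enrichment was run.

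The 4 stretches below were taken from called genes with CACGTG, the motif whose share differed most between rising and tested genes, to show its setting, with the motif in capitals. Timm8a1 is at chrX:134541874-134541920 on the minus strand, Slc16a1 at chr3:104638437-104638496, Nop2, a nucleolar RNA methyltransferase gene, at chr6:125131796-125131855 and Cdk6 at chr5:3343646-3343705, all 3 on the plus strand. Each stretch is read 5′ to 3′ along the gene and lies upstream of its start site.
Timm8a1: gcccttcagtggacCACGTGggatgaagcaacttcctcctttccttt
Slc16a1: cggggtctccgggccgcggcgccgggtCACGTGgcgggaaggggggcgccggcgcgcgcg
Nop2: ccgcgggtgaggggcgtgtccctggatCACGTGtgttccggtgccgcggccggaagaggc
Cdk6: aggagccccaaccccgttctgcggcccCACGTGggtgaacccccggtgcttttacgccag
These genes rose by 3.84, 3.34, 3.06 and 2.84 log2 units.

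The NF-kappaB-like and forkhead motifs are shown in the same way for genes of each direction. Ccl1 is at chr11:82179972-82180035 on the minus strand, and Il2ra at chr2:11642565-11642628 and Txnip at chr3:96557809-96557869 are on the plus strand. In Il2ra and Txnip the capitals read as the reverse complement of the motif.
Ccl1: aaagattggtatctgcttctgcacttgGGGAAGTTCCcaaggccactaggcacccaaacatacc
Il2ra: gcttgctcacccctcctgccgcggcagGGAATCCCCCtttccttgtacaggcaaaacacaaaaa
Txnip: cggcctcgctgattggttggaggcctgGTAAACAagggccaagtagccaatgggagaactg
Ccl1 and Il2ra rose and Txnip fell, by the values above for Il2ra and Txnip, and Ccl1 was at least 148-fold higher.

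Probe sets of the same gene did not always move together. Of the called genes, 1792 had another probe set above the floor. In 927 of them another probe set was called the same way, and in 11 another was called the opposite way. Wdr62, Rreb1, Ddx6, Mrtfb and Cep162 fell on the brightest probe set with another rising, and Dcun1d5, Mtm1, Zfp207, Rbis, Eny2 and Bzw2 the reverse. Mtm1, a lipid phosphatase gene, had a log2 fold of 2.35 on one and -1.63 on another. For these genes no direction of the gene as a whole can be given.

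The same stimulation given to cells that then received dorsomorphin was measured on the 4 other arrays. There, limma called 0 genes, with 539 at an unadjusted p under 0.05, beside 3269 called without dorsomorphin, and over all genes the median log2 fold was 0.06. The medians of the 57 lists ran from -0.23 for red cell and platelet markers to 0.81 for chemokines with dorsomorphin, and the latter was 3.38 without. That of antiproliferative effectors was -0.05 against -1.63 without, of small GTPase regulators -0.02 against -1.45, of aminoacyl-tRNA synthetases 0.22 against 1.75, and of proteasome subunits 0.20 against 1.26. That of interferon-stimulated genes was 0.78 with and 0.43 without. For single genes, Sema7a had a log2 fold of 1.03 with dorsomorphin, Mettl1 of 0.45, Cd55 of -0.40 and Ccnd2 of 1.02.

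The test of the difference itself, the interaction of stimulation and dorsomorphin, called 12 genes, 0.0858% of those tested, with 3687 at an unadjusted p under 0.05. Spry1 had a difference of -5.29 ± 0.35 log2 units (with minus without dorsomorphin, adjusted p = 0.0405) and Pdcd1lg2 of -4.57 ± 0.40 (adjusted p = 0.0492). Under other settings this count ran from 0, for example with median centring, to 2036 with a variance trend and robust fit, so for most genes the 2 responses cannot be said to differ gene by gene. Without either control array, or without stimulated replicate 2, it was 0, and without stimulated replicate 1 it was 803.

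**Figure D4:**
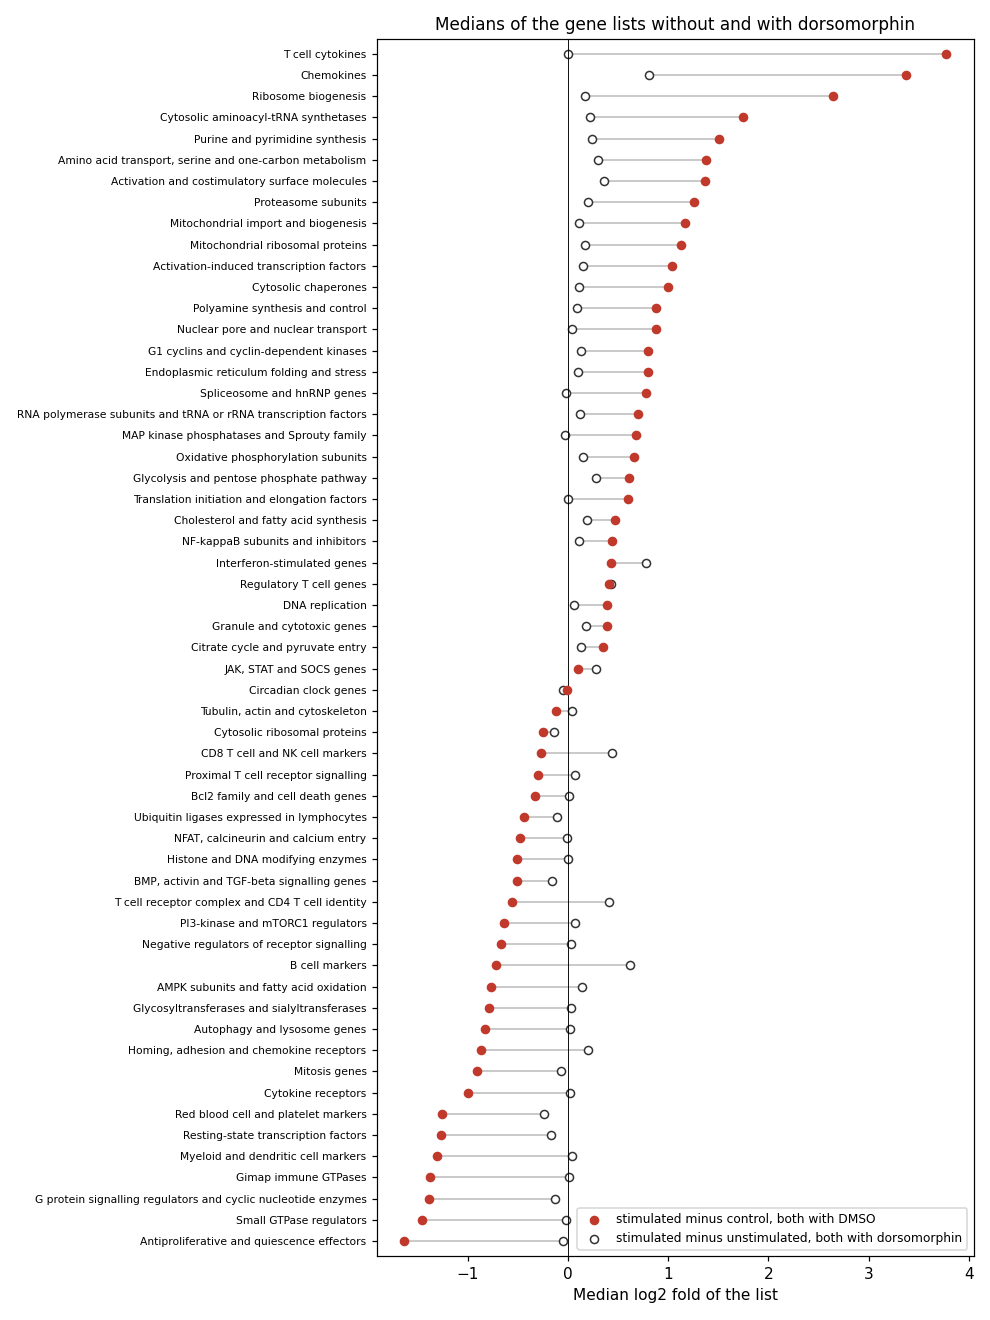
Median log2 fold (horizontal axis) of the 57 gene lists for stimulated minus control cells, both with DMSO (red), and for stimulated minus unstimulated cells, both with dorsomorphin (open circles). The red medians run from -1.63 for antiproliferative effectors to 3.78 for T cell cytokines, and the open ones from -0.23 for red cell and platelet markers to 0.81 for chemokines.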

How the data were processed

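Messenger RNA of primary CD4+ T cells was labelled with biotin by in vitro transcription and hybridised to 8 Affymetrix arrays, as the labels' protocols state. For each probe set and array the authors deposited a linear intensity. RMA and affy are the tools named in the submitters' processing notes, but RMA gives log2 values. These are linear, with a trimmed mean of 500 on every array (2% trimmed at each end), and how they were made is not stated in the sources used here. Detection calls were not used here.

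Of 45101 probe sets, 34945 had 1 symbol in the platform annotation, 932 several and 9160 none, and 64 were controls. The brightest probe set over the 8 arrays stood for each of 18193 genes. The log2 intensity was used without renormalization. Genes above the 40th percentile of all values (log2 5.22) on at least 2 arrays were tested, 13983 in all, and this percentile was the working floor. A linear model of 4 groups over 8 arrays was fitted with limma 3.58.1 in R 4.3.3, with 4 residual and 1.90 prior degrees of freedom. Two-sided p-values were adjusted by Benjamini-Hochberg over all tested genes at a threshold of 0.05. The fold of a gene with both arrays of 1 group under the floor is a bound, taken on each array against the floor or the gene's own signal, whichever was higher. The fit was tested on simulated data.

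The comparison, the alternatives, the rule that picked genes to name and the 57 lists were chosen with earlier results of these data known. The rule named the 20 largest rises and 20 largest falls with both means above the floor and no overlap, outside cytokine, chemokine and ribosome biogenesis genes and clone names. It added up to 5 called members per list by size and up to 3 against the list's majority, the 8 brightest called genes per group, the 10 largest bounds each way and the interaction genes with the smallest p. It also added members that did not pass, in lists where at most 3 did not pass or where none passed. A few others, such as the pairs of related genes, were picked after their values were seen. Alternatives were other scalings, filters, a pseudocount of 16, averaging a gene's probe sets, the 4 arrays alone, a variance trend, the replicate number as a block, and leaving out each array. Promoters and the microRNA come from RefSeq on GRCm38.p6. Some genes that the naming rule picks are not reported here.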

Additional observations from a re-analysis of the deposited data

Results flagged for a closer look

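The response to stimulation differed between cells without and with dorsomorphin, by the test of the interaction, for 12 genes, and those named by the rule are given as log2 differences (response with dorsomorphin minus response without). It was lower with dorsomorphin for Spry1 (-5.29, adjusted p = 0.0405), Tnfsf14 (-5.28, adjusted p = 0.0492), Egr2 (-5.14, adjusted p = 0.0492), Pdcd1lg2 (-4.57, adjusted p = 0.0492) and Slc35d3 (-3.62, adjusted p = 0.0492). It was higher for Galnt9 (6.37, adjusted p = 0.0348), Apobec1 (5.61, adjusted p = 0.0492), Ift172 (4.63, adjusted p = 0.0419) and Ripor1 (3.52, adjusted p = 0.0492). Apobec1 and Ift172 were under the floor on both stimulated arrays without dorsomorphin, and Slc35d3 on both control arrays, so the size of these differences depends on dim values. These calls were absent without either control array, without stimulated replicate 2, with median centring, without the filter and with the replicate block.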

How the results depend on the processing

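Rises and falls numbered 1256 and 2013. Falls became 1040 with median centring, 1273 without the filter and 1242 with the probe sets of a gene averaged, and both became 745 and 923 with only the 4 arrays of the comparison. Leaving out 1 array gave 0 to 984 rises and 0 to 1950 falls, with 0 of each without control replicate 1 (3794 genes at an unadjusted p under 0.05 in limma) or control replicate 2 (3813), and 261 and 419 without stimulated replicate 2. The other alternatives kept both counts within 1.5 times. The all-gene median of -0.27 was 0.082 with median centring, -0.010 with cyclic loess and -0.046 with quantile normalization, and -0.37 to -0.14 with 1 array left out. The 12 interaction genes became 0 with median centring (2783 at an unadjusted p under 0.05 in limma) or without the filter (3642), 2 with the mean of probe sets, 46 with cyclic loess, 384 with quantile normalization, 910 with a pseudocount of 16, 1867 with the 60th percentile filter and 2036 with a variance trend and robust estimation, and 0 to 803 with 1 array left out. The cause of these changes was not tested.

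The replicate numbers 1 and 2 recur in each group, with no statement of what they mark, and same-numbered arrays deviated together at correlations of 0.07 to 0.18 between groups, 0.10 for control and stimulated. With the replicate block 1499 genes rose and 2498 fell, and the interaction called 0 genes (4477 at an unadjusted p under 0.05 in limma).

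Among the named genes, these log2 folds changed sign, none of them past the threshold where it had changed. Edem2, which fell in the comparison as described, gave 0.44 with the probe sets averaged, and Ms4a1 gave 0.21, 0.27 and 0.29 with median centring, cyclic loess and quantile normalization. With 1 array left out, Hba-a1 ranged from -3.71 to 0.25, Hba-a2 from -0.17 to 0.22, Gp9 from -4.02 to 0.011, Ncr1 from -1.88 to 0.79, Itgax from -1.38 to 1.58 and Alas2 from -3.55 to 3.78. Alas2 gave -0.56 with the pseudocount. Apart from Edem2 these are markers of other cells that did not pass in the comparison as described.

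With 2 arrays a group and no known background per array, small changes and dim genes are the least certain, as the 2.08% and 4.83% called among the 4661 dimmest genes show.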
